A study of Mus musculus with 12 samples.

Results

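The subunits of the 5 oxidative phosphorylation complexes were followed in bone marrow-derived macrophages (BMDMs) treated with fenoterol, an agonist of the β2-adrenergic receptor (B2AR). The members were chosen by symbol and by level and not by response: protein-coding genes named for subunits of complex I (*Ndufa*, *Ndufb*, *Ndufc*, *Ndufs*, *Ndufv* and mt-Nd genes), complex II (*Sdha* to *Sdhd*), complex III (*Uqcr* genes, *Cyc1* and mt-Cytb), complex IV (*Cox4* to *Cox8* and mt-Co genes) and complex V, the ATP synthase (*Atp5* and mt-Atp genes), with a mean raw count of at least 100 over the 12 libraries. Of the 53379 genes listed, 98 had such a symbol and 77 of them reached this mean count, 70 encoded in the nucleus and 7 in the mitochondrial genome. They comprised 39 genes of complex I, 4 of complex II, 10 of complex III, 11 of complex IV and 13 of complex V. Complexes were assigned by symbol alone, which also placed *Ndufa4* in complex I and *Cox7a2l* in complex IV. The other 21 genes lay below the minimum and are described separately. The list of members was set with earlier results of these data known.

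Oxidative phosphorylation uses electrons from NADH and succinate to pump protons across the inner mitochondrial membrane. Complexes I and II take up the electrons, ubiquinone carries them to complex III, cytochrome c carries them to complex IV, and the ATP synthase uses the proton gradient to make ATP. Most subunits are encoded by nuclear genes and imported, while a small set of membrane subunits is transcribed inside the organelle, so that mRNAs from both genomes are needed for complexes I, III, IV and V. Macrophages are known to change their use of respiration when they are activated, and adrenergic signals act through cAMP and CREB, a factor that binds the cAMP response element (CRE).

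Bone marrow cells of 4 male C57Bl/6J mice, 8 to 20 weeks old according to the methods, were grown for 1 week in RPMI with FCS and medium conditioned by L929 cells. BMDMs of each mouse were left untreated or received 1 µM fenoterol for 1 h or 4 h in the same medium, which gave 3 groups of 4 libraries, and all groups shared the strain, the culture and the medium. The comparison with untreated cells asks whether B2AR stimulation changes the mRNAs of the respiratory chain within these times. Only RNA was analysed here, and not protein or respiration. The paper measured respiration in BMDMs treated with norepinephrine and reported no effect of B2AR activation on it.

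Total counts per library were 14580533 to 22580692 in untreated cells, 18288911 to 20549801 at 1 h and 18446470 to 24153284 at 4 h. All 8 macrophage markers, among them *Adgre1*, *Csf1r* and *Lyz2*, had at least 1253 counts in every library. Erythroid markers were at 0, B and T cell markers had at most 4 and dendritic cell markers at most 15 counts in a library, and the 7 neutrophil and 5 fibroblast or stromal markers reached at most 508 and 798 counts. Fewer cells of a type and less RNA per cell cannot be told apart in these bulk samples. Normalized counts are counts scaled to a common library size by the TMM method of edgeR, and the threshold was an adjusted p under 0.05 over the 12386 genes tested, with all 77 members among them.

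Few subunits of the respiratory chain passed the test at 1 h and more did at 4 h, with small differences at both times. At 1 h, 2 members were higher than in untreated BMDMs and 0 were lower, a share of 2.60%, while 20.1% of all genes tested passed (10.0% higher, 10.1% lower). At 4 h, 12 members were higher and 4 lower, or 20.8%, against 40.0% of all genes (19.7% higher, 20.4% lower). Against untreated cells, the largest log2 fold change was 0.48 for *Atp5d* and the lowest was -0.24 for *Ndufb3*, both at 4 h. These values come from a fit that took no account of the mouse. Blocking by mouse gave 8 higher and 0 lower members at 1 h, and 17 higher and 6 lower at 4 h. In that fit 27.0% and 47.4% of all genes passed.

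The sizes of the differences were small as well as their number. The 95% interval of the log2 fold change lay between -0.5 and 0.5, a 1.41-fold difference, for 74 of 77 members at 1 h and 72 of 77 at 4 h. The same held for 59.0% and 49.2% of all genes tested, and for 78.6% and 65.8% of the 8304 tested genes whose mean count fell in the range of the nuclear members. At 1 h the interval of no member reached a 2-fold difference in either direction. At 4 h only that of *mt-Nd6*, the member with the lowest mean raw count, extended past 2-fold.

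The members lay slightly above untreated levels. The median log2 fold change over the 77 members was 0.09 at 1 h and 0.11 at 4 h, next to -0.00 and 0.00 over all genes. At 1 h, 70 members had a fitted value above 0, but with libraries scaled by total count alone this was 45, the median of the members was 0.02 and that of all genes -0.07. At 4 h, 64 members lay above 0, and 65 did with scaling by total count alone. That scaling called 1 member higher and 0 lower at 1 h, against 23.6% of all genes (7.66% higher, 15.9% lower), and 15 higher and 3 lower at 4 h, against 40.4% (21.5% higher, 18.8% lower).

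**Figure D1:**
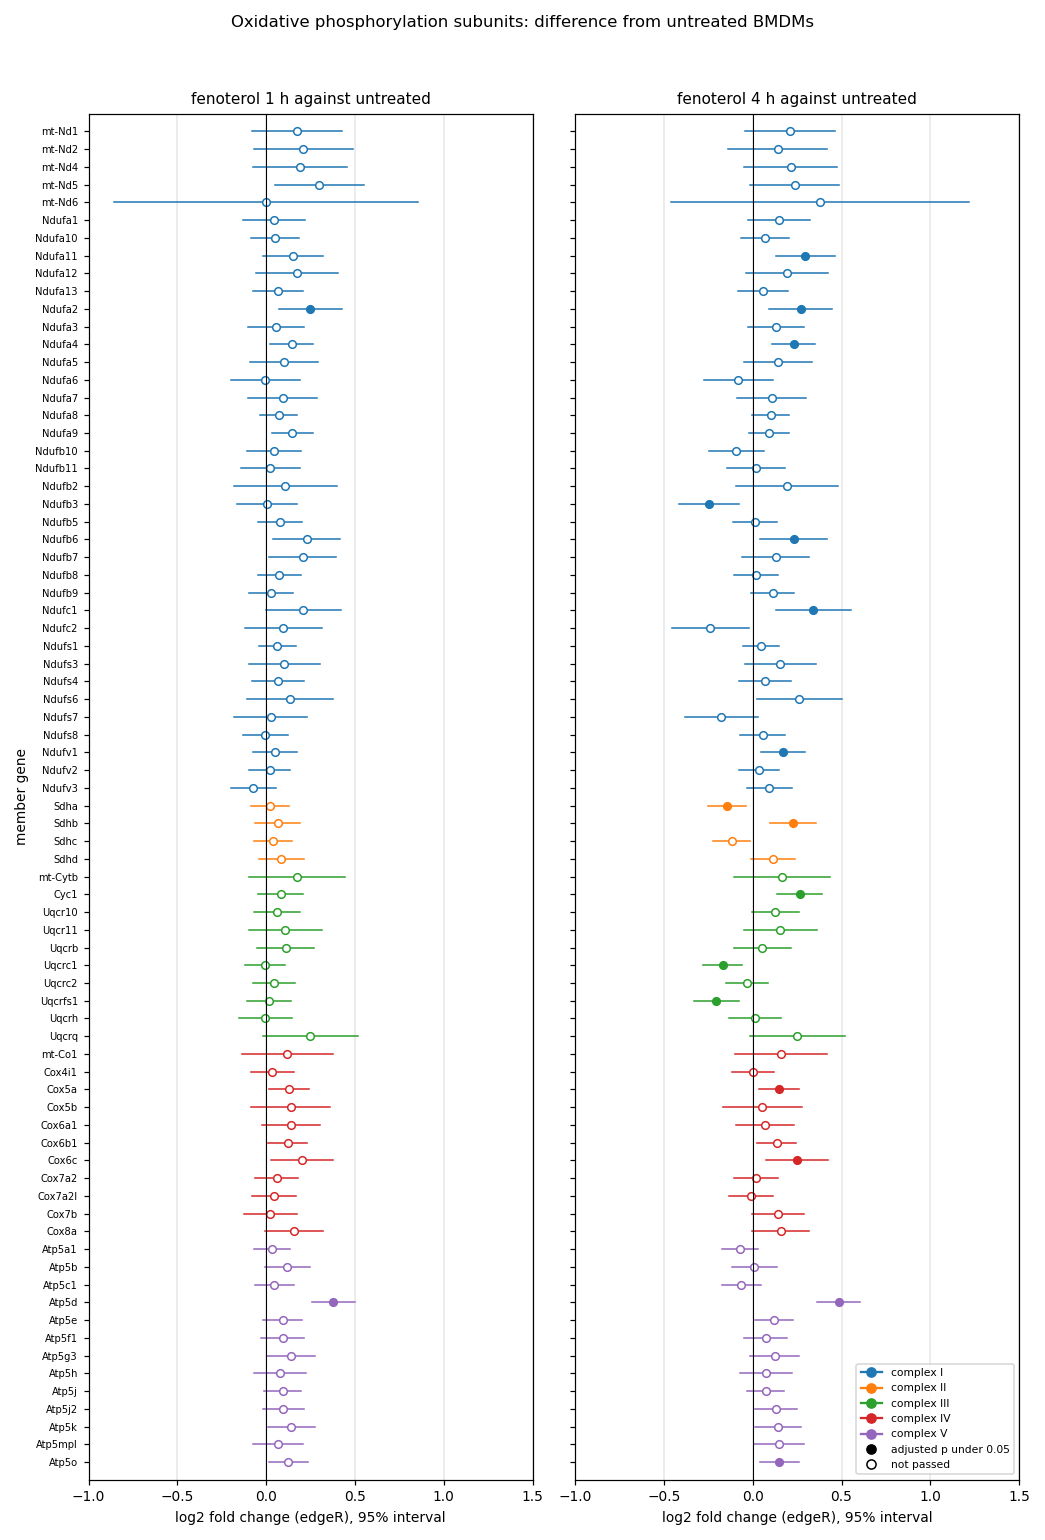
Log2 fold changes of 76 of the 77 members at 1 h (left) and 4 h (right) of fenoterol against untreated BMDMs, with 95% intervals, coloured by complex; filled points passed the threshold of 0.05 on the adjusted p (edgeR, n = 4 libraries per group). At 1 h 2 points are filled, at 4 h 16 are filled, and *Atp5d* lies furthest to the right at both times among these.

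*Atp5d* encodes the δ subunit of the central stalk of the ATP synthase and lies at chr10:80138632-80145818 (GRCm38, plus strand). Its normalized counts were 2087, 2161, 2018 and 2164 in untreated BMDMs of mice 1 to 4, 2668, 2749, 2560 and 2968 at 1 h, and 3085, 2926, 3026 and 2742 at 4 h. Every treated library was above every untreated library. Its log2 fold change was 0.38 (SE 0.0564) at 1 h and 0.48 (SE 0.0564) at 4 h, or 1.30-fold and 1.40-fold, with adjusted p of 0.000192 and 7.63e-06 by the quasi-likelihood test of edgeR. *Atp5d* passed at both times under all 22 alternative fits, which included leaving out each library and kept the threshold at 0.05.

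Its neighbours in the ATP synthase did not move by a like amount. *Atp5o*, which encodes the subunit that joins the stator to the catalytic head, was the other member of complex V that passed at 4 h, at a log2 fold change of 0.15 (SE 0.0515, adjusted p = 0.033 in edgeR). Its counts were 1331 to 1407 in untreated cells and 1480 to 1569 at 4 h, without overlap, and the call held in 15 of 22 alternatives. Of the exon bases of *Atp5o*, 35.6% lie opposite a gene on the other strand, and 19.1% of its 50-base stretches occur in transcripts of another gene. For *Atp5a1* and *Atp5b*, the α and β subunits of the catalytic head, the log2 fold change at 4 h was -0.07 (95% interval -0.17 to 0.03) and 0.01 (-0.12 to 0.14). *Atp5c1* and *Atp5e*, the γ and ε subunits that form the central stalk with the δ subunit, had -0.06 and 0.12 at 4 h, with adjusted p of 0.355 and 0.0696 in edgeR. *Atp5g3*, which encodes the c subunit of the membrane ring, had 0.14 at 1 h and 0.12 at 4 h, and neither value passed.

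Of the 39 members of complex I, 7 passed at 4 h, a smaller share than the 40.0% of all genes. *Ndufa2*, an accessory subunit, was the other member that passed at 1 h, at a log2 fold change of 0.25 (SE 0.083, adjusted p = 0.0491 in edgeR). Its normalized counts were 1090, 1214, 1173 and 1227 in untreated cells and 1210, 1487, 1303 and 1586 at 1 h. These groups overlapped, although all 4 mice had the higher value at 1 h. The call held in 11 of 22 alternatives, with adjusted p from 0.00301 to 0.143. At 4 h the counts of *Ndufa2* were 1563, 1418, 1389 and 1298, above all untreated libraries, and the log2 fold change was 0.27 (adjusted p = 0.018 in edgeR).

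*Ndufc1* and *Ndufa11*, accessory subunits of the membrane arm, had the largest log2 fold changes among the members of complex I that passed at 4 h. *Ndufc1* had 235, 217, 277 and 219 normalized counts in untreated cells and 301, 295, 307 and 297 at 4 h, a log2 fold change of 0.34 (SE 0.0981, adjusted p = 0.0125 in edgeR). *Ndufa11* (chr17:56717767-56722141, plus strand) went from 547, 603, 556 and 522 to 653, 662, 783 and 636, a log2 fold change of 0.30 (SE 0.0779, adjusted p = 0.0071). The groups did not overlap for either gene, and both calls held in all 22 alternatives at the threshold of 0.05, while at 0.01 that of *Ndufc1* was lost. *Ndufa4*, whose protein was first assigned to complex I and is now known as a subunit of complex IV, was 1.17-fold higher at 4 h (1229 to 1418 in untreated cells, 1515 to 1671 at 4 h, adjusted p = 0.00422 in edgeR), and this call also held throughout.

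Among the core subunits of complex I, those that carry the redox centres or bind the quinone, *Ndufv1* passed at 4 h. *Ndufv1* encodes the subunit that binds NADH and FMN, and its normalized counts were 1156 to 1210 in untreated cells and 1250 to 1408 at 4 h, a log2 fold change of 0.17 (SE 0.0584, adjusted p = 0.0306 in edgeR). The call held in 14 of 22 alternatives and was lost without any 1 of the 4 untreated libraries. Its partner *Ndufv2* had 0.03 (95% interval -0.08 to 0.15). The values for *Ndufs1*, *Ndufs3*, *Ndufs7* and *Ndufs8* at 4 h lay between -0.18 and 0.15, and none of these passed. Over the 27 nuclear accessory subunits the median log2 fold change at 4 h was 0.11, with 5 higher and 1 lower, *Ndufa4* counted here by its symbol, while 19.7% of all genes were higher and 20.4% lower.

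*Ndufb3*, an accessory subunit of the membrane arm, was the member of complex I that fell at 4 h. It had 364, 385, 352 and 408 normalized counts in untreated cells, 368, 355, 366 and 423 at 1 h, and 321, 334, 316 and 303 at 4 h. All 4 libraries at 4 h lay below all others, with a log2 fold change of -0.24 (SE 0.0787, adjusted p = 0.0227 in edgeR) against untreated cells, a call that held in 17 of 22 alternatives. *Ndufb6*, also a membrane arm subunit and named here after its values were seen, passed at 4 h with 0.23 (adjusted p = 0.0489), its groups overlapped, the call held in 9 of 22 alternatives, and 39.0% of its exon bases lie opposite a gene on the other strand.

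**Figure D2:**
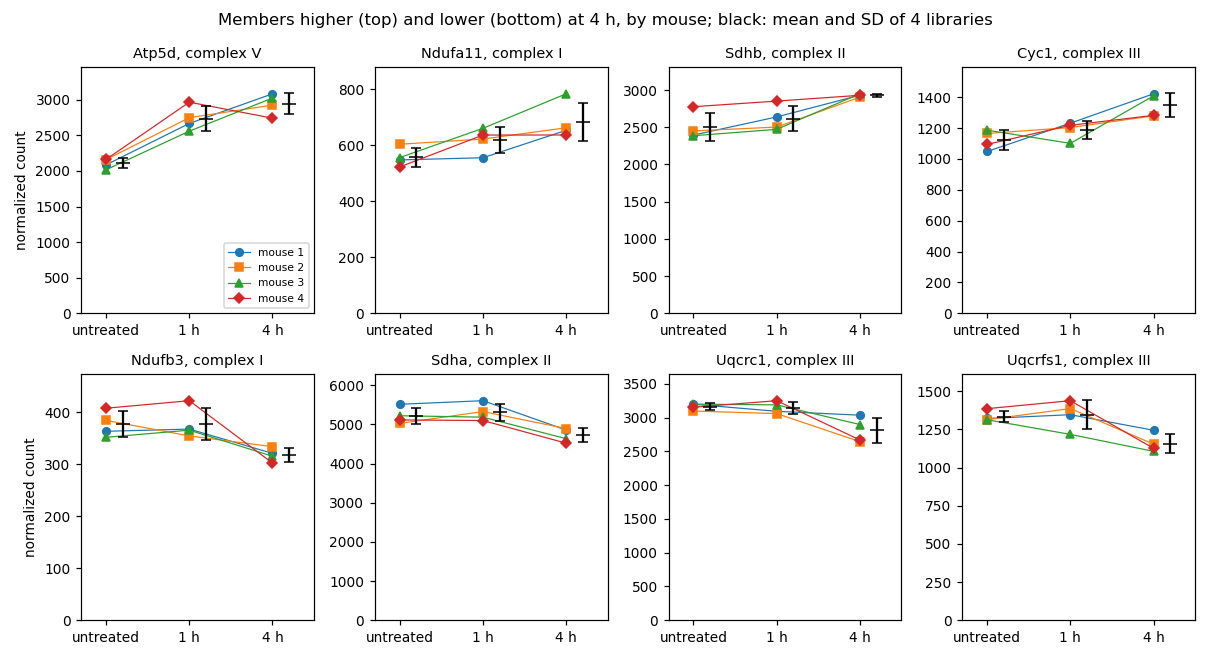
Normalized counts of 8 members in each of the 12 libraries, joined by mouse, with the mean and SD of each group in black (n = 4); the vertical axes start at 0. *Atp5d*, *Ndufa11*, *Sdhb* and *Cyc1* (top) lie above all untreated libraries at 4 h, and *Ndufb3*, *Sdha*, *Uqcrc1* and *Uqcrfs1* (bottom) lie below them.

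The subunits of complex II went in opposite directions at 4 h. *Sdhb* encodes the iron-sulfur subunit (chr4:140961203-140979193, plus strand), and its normalized counts rose from 2395, 2450, 2386 and 2776 in untreated cells to 2931, 2905, 2950 and 2929 at 4 h. Its log2 fold change was 0.23 (SE 0.0597, adjusted p = 0.00707 in edgeR), and the call held in all 22 alternatives. *Sdha* encodes the flavoprotein that oxidizes succinate (chr13:74322254-74350280, minus strand), and its counts fell from 5516, 5028, 5223 and 5115 to 4857, 4897, 4636 and 4522. Its log2 fold change was -0.14 (SE 0.0496, adjusted p = 0.0328 in edgeR), the groups did not overlap, and 17 of 22 alternatives kept the call. The membrane anchors *Sdhc* and *Sdhd* had -0.12 and 0.11, with adjusted p of 0.0695 and 0.142 in edgeR, and with the mouse as a block *Sdhc* passed (adjusted p = 0.0375).

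Complex III also held members of both directions. *Cyc1*, which encodes cytochrome c1 (chr15:76343523-76346260, plus strand), had 1048, 1165, 1186 and 1094 normalized counts in untreated cells and 1422, 1279, 1408 and 1282 at 4 h. Its log2 fold change was 0.26 (SE 0.0596, adjusted p = 0.00253 in edgeR). *Uqcrfs1*, which encodes the Rieske iron-sulfur protein (chr13:30540308-30545362, minus strand), had 1322, 1314, 1313 and 1386 in untreated cells and 1244, 1154, 1106 and 1126 at 4 h, a log2 fold change of -0.20 (SE 0.0581, adjusted p = 0.0114). Cytochrome c1 and the Rieske protein are neighbours in the same electron path, and the calls of both genes, higher for one and lower for the other, held in all 22 alternatives at the threshold of 0.05. At a threshold of 0.01 that of *Uqcrfs1* was lost.

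*Uqcrc1*, a core structural subunit of complex III, fell at 4 h, with 3096 to 3199 normalized counts in untreated cells and 2644 to 3035 after treatment. Its log2 fold change was -0.17 (SE 0.0512, adjusted p = 0.0162 in edgeR), and 19 of 22 alternatives kept the call. Its partner *Uqcrc2* had -0.03 (95% interval -0.15 to 0.09). At 1 h, 0 members of complexes II and III passed in edgeR, DESeq2 or limma-voom without a block for the mouse, and 0 had an unadjusted p under 0.05.

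In complex IV, *Cox6c* and *Cox5a* passed at 4 h. *Cox6c* had 816, 664, 844 and 874 normalized counts in untreated cells and 1026, 904, 939 and 940 at 4 h (log2 fold change 0.25, SE 0.0815, adjusted p = 0.0244 in edgeR), and 21.1% of the 50-base stretches of its transcript also occur in transcripts of other genes. *Cox5a* went from 1300 to 1473 counts to 1484 to 1611 (0.15, SE 0.0525, adjusted p = 0.039), and its call held in 13 of 22 alternatives, that of *Cox6c* in 20. The other 9 members did not pass in edgeR, and for *Cox4i1*, the ubiquitous isoform of the regulatory subunit, the log2 fold change at 4 h was 0.00 with an interval of -0.12 to 0.12. *Cox6b1* lay at 0.14 with an adjusted p of 0.0501, just short of passing, and passed with the mouse as a block (0.028).

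Cells of the same mouse were in all 3 groups. With the mouse as a block, 8 members were higher at 1 h and 0 lower, while 27.0% of all genes then passed (13.3% higher, 13.7% lower). The 6 added were *mt-Nd5*, *Ndufa4*, *Ndufb6*, *Uqcrq*, *Cox6c* and *Atp5b*, named after their values were seen, with adjusted p of 0.0188 to 0.0434. At 4 h the block gave 17 higher and 6 lower members, with 47.4% of all genes passing (23.6% higher, 23.8% lower). The block added *mt-Nd5*, *Ndufs6*, *Uqcrq*, *Cox6b1* and *Cox8a* to the higher members at 4 h and *Ndufc2* and *Sdhc* to the lower ones. Between the times it gave 3 higher and 8 lower members, with 46.6% of all genes passing (23.0% higher, 23.6% lower), and the 2 added were *Atp5a1* and *Atp5b*. With a further adjustment for GC content and length, 17 members were higher and 0 lower at 1 h (22.1%, against 32.6% of all genes, with 16.2% higher and 16.3% lower). At 4 h this fit gave 26 higher and 9 lower members (45.5%, against 52.4% of all genes), and the share of members that were higher, 33.8%, lay above the 26.4% of all genes. The share that were lower, 11.7%, lay below the 26.1% of all genes. Between the times this fit gave 7 higher and 11 lower (23.4%, against 51.5%).

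Between the treated groups, 9 of 77 members differed (11.7%, against 38.5% of all genes, with 18.7% higher and 19.8% lower). *Sdhb*, *Cyc1* and *Ndufv3* were higher at 4 h than at 1 h, with log2 fold changes of 0.16, 0.18 and 0.17, and *Ndufb3*, *Ndufc2*, *Sdha*, *Sdhc*, *Uqcrc1* and *Uqcrfs1* were lower, from -0.34 to -0.16. *Ndufc2*, an accessory subunit of complex I, had the lowest value: 711, 747, 826 and 853 normalized counts at 1 h and 602, 587, 613 and 681 at 4 h (-0.34, SE 0.1, adjusted p = 0.016 in edgeR). *Ndufv3* and *Ndufc2* were named after their values were seen. The call of *Sdhb* between the times held in 11 of 22 alternatives and those of the other 8 in 15 to 21. With libraries scaled by total count alone, 11 members were higher and 0 lower in this comparison, against 43.1% of all genes (28.3% higher, 14.8% lower). That scaling moved the median log2 fold change from 0.01 to 0.10 over the members and likewise from 0.01 to 0.10 over all genes, and TMM factors were 0.953 to 0.974 at 1 h and 1.02 to 1.04 at 4 h.

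Counts of mRNAs from the mitochondrial genome were listed for 7 of its 13 protein-coding genes. *mt-Co2*, *mt-Atp8*, *mt-Atp6*, *mt-Co3*, *mt-Nd3* and *mt-Nd4l*, which follow each other on the mitochondrial genome, were at 0 in all 12 libraries. *mt-Co1* and *mt-Nd4*, the genes on either side of this stretch, had 61505 and 13007 counts per library on average. Of the 50-base stretches of each transcript, the length of a read, 98.0% to 100% of those of *mt-Co2*, *mt-Atp6*, *mt-Co3*, *mt-Nd3* and *mt-Nd4l* also occur in transcripts of annotated nuclear pseudogenes, and 0% of those of *mt-Atp8* occur in any other annotated transcript. HTSeq-count by default leaves out reads that align to more than 1 place. The part of the shared sequence in the zero counts was not tested, and these zeros are no measure of expression.

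The start of 2 of these genes is shown because the stretches are identical in a nuclear pseudogene. The first 50 bases of *mt-Co2* (chrM:7013-7062) and *mt-Co3* (chrM:8607-8656) are also found in *Gm28661* (chr1:24614885-24615565) and *Gm28437* (chr1:24613189-24613971), according to the GENCODE M21 transcripts for GRCm38.
mt-Co2: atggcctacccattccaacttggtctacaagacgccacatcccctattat
mt-Co3: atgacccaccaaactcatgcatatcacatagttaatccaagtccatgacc

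The counted genes next to this stretch were shared in part. The shared stretches made up 51.1% of *mt-Co1*, with the longest run at its 3′ end (bases 1067 to 1545 of the transcript), and 62.2% of *mt-Nd4*, with the run at its 5′ end (bases 1 to 876). *mt-Nd1*, *mt-Nd6* and *mt-Cytb* shared none, and *mt-Nd2* and *mt-Nd5* shared 8.19% and 7.61%.

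**Figure D3:**
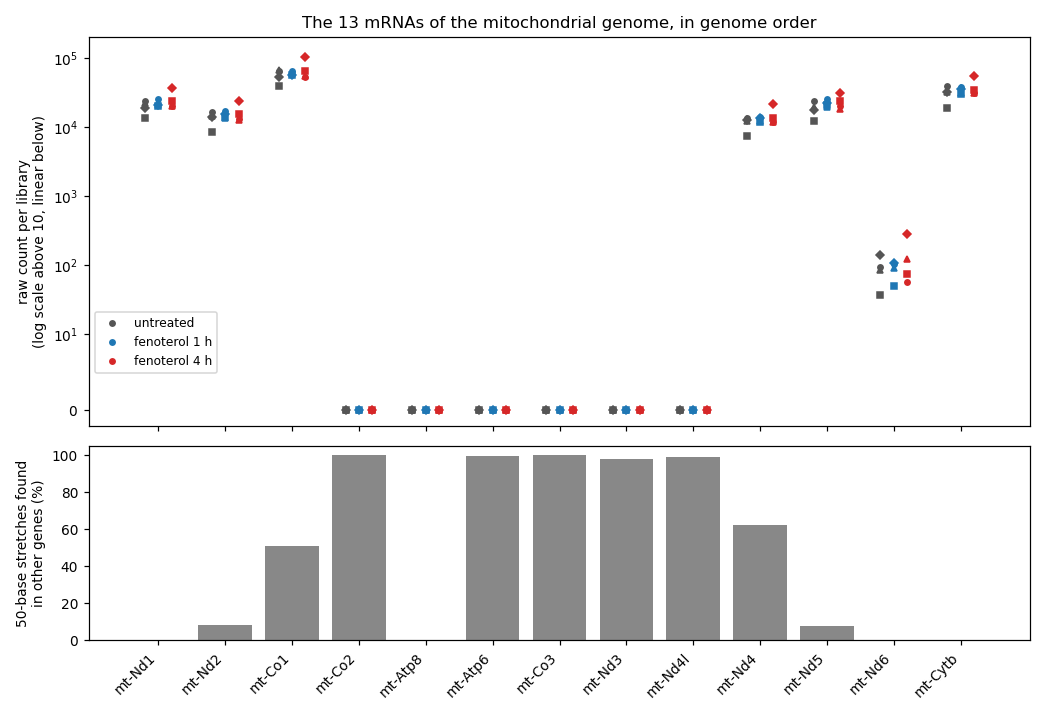
Raw counts in each library for the 13 mRNAs of the mitochondrial genome in genome order (top, logarithmic above 10) and the percentage of the 50-base stretches of each transcript that also occur in annotated transcripts of other genes (bottom). The 6 genes from *mt-Co2* to *mt-Nd4l* are at 0 in all 12 libraries, and *mt-Nd6*, with a mean of 103 counts, lies far below the other counted genes, of which *mt-Nd4* had the lowest mean, 13007.

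Per length, the mitochondrial mRNAs with counts were the most abundant members except for *mt-Nd6*. In untreated BMDMs *mt-Co1*, which encodes the catalytic subunit of complex IV, had 1883 ± 177 RPKM (SD, n = 4), *mt-Cytb* 1382 RPKM and *mt-Nd1* 1073 RPKM. The highest nuclear members were *Cox6b1* with 218 RPKM and *Cox4i1* with 209 RPKM, below *mt-Nd4* with 433 RPKM. *mt-Nd6*, the only subunit gene encoded on the other strand of the mitochondrial genome, had 8.82 ± 4.25 RPKM. RPKM here use all exon bases of a gene, shared or not. Per kb of 50-base stretches not shared with other transcripts, the normalized counts in untreated cells were 78133 for *mt-Co1*, 28353 for *mt-Cytb*, 23339 for *mt-Nd4* and 22197 for *mt-Nd1*, so the order of *mt-Nd4* and *mt-Nd1* turned with the length used.

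The 7 mitochondrial members did not pass at 1 h or 4 h in edgeR without the block. Of these, 1 had an unadjusted p under 0.05 at 1 h and 0 at 4 h, DESeq2 called 1 at 1 h and 0 at 4 h, and limma-voom called 0 at both times. Their median log2 fold change was 0.17 at 1 h and 0.21 at 4 h, and all 7 values at 4 h were above 0, from 0.14 to 0.38. *mt-Nd5* encodes a proton-pumping subunit of complex I and had the lowest adjusted p. Its normalized counts were 20296, 16312, 18794 and 18774 in untreated cells, 26077, 23058, 19128 and 22974 at 1 h and 21203, 24915, 16952 and 24323 at 4 h. The groups overlapped, with mouse 3 near its untreated value at 1 h and below it at 4 h, and the log2 fold change was 0.30 at 1 h (adjusted p = 0.0942 in edgeR, and 0.0188 with the mouse as a block) and 0.24 at 4 h (0.127, and 0.0407 with the block). After a further adjustment for GC content and length, *mt-Cytb*, *mt-Nd1*, *mt-Nd2*, *mt-Nd4* and *mt-Nd5* were called higher at both times. In that fit 16.2% of all genes were higher at 1 h and 26.4% at 4 h.

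The mice diverged in the mitochondrial counts at 4 h. For *mt-Co1* the normalized counts were 55406, 51744, 64486 and 56825 in untreated cells and 55616, 66994, 51115 and 81350 at 4 h, so that mice 2 and 4 had more and mouse 3 less than untreated, while mouse 1 hardly differed. The log2 fold change was 0.16 with an interval of -0.10 to 0.42. *mt-Cytb* followed the same order of mice at 4 h, with 32401, 35350, 28479 and 43067 counts. The ribosomal RNAs of the mitochondrion, *mt-Rnr1* and *mt-Rnr2*, had log2 fold changes of 0.04 and -0.18 at 4 h and did not pass.

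As a share of all counts, the 7 mitochondrial members took 0.783% ± 0.0717 in untreated cells, 0.842% ± 0.0671 at 1 h and 0.902% ± 0.18 at 4 h (SD, n = 4 each). By mouse, the share was 0.796%, 0.679%, 0.831% and 0.828% in untreated cells and 0.807%, 0.947%, 0.722% and 1.13% at 4 h, and the groups overlapped. The 70 nuclear members together took 0.590% ± 0.0180, 0.593% ± 0.0201 and 0.619% ± 0.0175, also with overlap. With totals scaled by TMM the nuclear shares were 0.584%, 0.615% and 0.602%, so that the order of 1 h and 4 h turned. The mitochondrial shares with that scaling were 0.775%, 0.874% and 0.878%, nearly equal at 1 h and 4 h. No test was run on these shares.

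**Figure D4:**
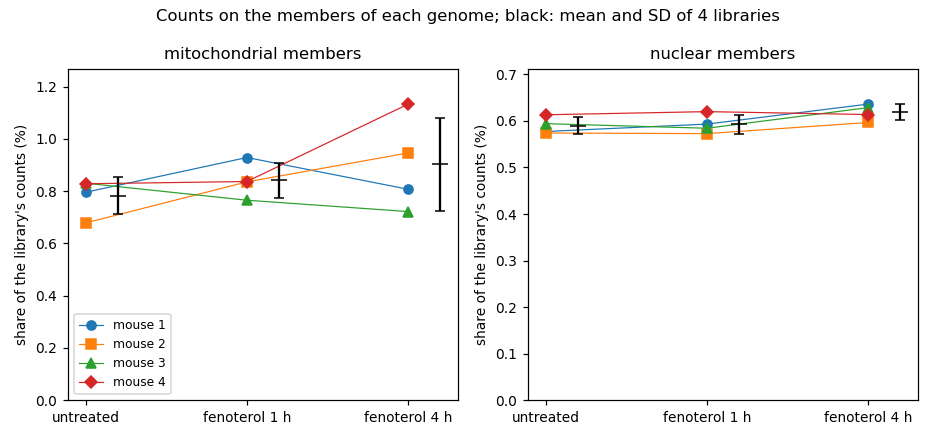
Share of each library's counts on the 7 mitochondrial (left) and 70 nuclear (right) members, joined by mouse, with the mean and SD of each group in black (n = 4); the axes start at 0. The mitochondrial share at 4 h spreads from 0.722% to 1.13%, while the nuclear share stays between 0.573% and 0.636% in all 12 libraries.

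The mean log2 level of the mitochondrial members over the 12 libraries was most like that of *Rpl14-ps1* (Pearson's r = 0.926), *Zfp944* (0.879), *Srsf10* (0.869), *Selenof* (0.863) and *E230029C05Rik* (0.851), out of all other genes tested. These values are a description over libraries that share mice and groups.

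Below the mean count of 100 lay 21 genes of the symbol rule, 6 of them mitochondrial and 15 nuclear. The 3 members just above the minimum were *mt-Nd6*, *Ndufb2* and *Ndufa12*, with 103, 173 and 226 counts on average, and the 3 genes just below it were *Ndufs5*, *Ndufb4* and *Atp5s*, with 86.4, 85.1 and 74.3. Several of the low genes share sequence with other genes: 53.0% of the 50-base stretches of *Cox7c*, 68.5% of those of *Atp5l*, 41.2% of those of *Ndufs5* and 100% of those of *Atp5g2* occur in transcripts of other genes. Their mean counts were 22.0, 36.1, 86.4 and 11.1, and the part of shared sequence in them was not tested. *Ndufab1*, the mitochondrial acyl carrier protein of complex I, and *Atpif1*, the inhibitor of the ATP synthase, do not match the symbol rule. They had log2 fold changes of 0.12 and -0.14 at 4 h and did not pass in edgeR. With the mouse as a block *Atpif1* passed at 4 h (adjusted p = 0.0241), and it was lower at 4 h than at 1 h in edgeR (-0.21, adjusted p = 0.0188), though not with libraries scaled by total count alone (0.182).

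The tissue-specific isoforms of complex IV were hardly counted. *Cox4i2*, *Cox6a2*, *Cox6b2* and *Cox7a1*, the counterparts of *Cox4i1*, *Cox6a1*, *Cox6b1* and *Cox7a2* known from lung, testis or muscle, had means of 1.83, 10.8, 8.33 and 44.3 counts per library. *Cox6a2* was the 1 gene below the minimum that passed in edgeR in any of the 3 comparisons, lower at 4 h than at 1 h (-1.18, adjusted p = 0.0417 in edgeR, and 0.0562 with scaling by total count alone), on 3 to 24 raw counts per library. *Cox8b*, *Cox8c* and *Cox7b2* were listed at 0 in all 12 libraries. *Ndufa4l2*, a target of HIF-1 known from hypoxic cells, had at most 3 counts in a library, while *Hif1a* itself was 1.59 higher on the log2 scale at 4 h.

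Sequences before the transcription start were available for 57 of the 70 nuclear members, in 62 windows from RefSeq (GRCm38.p6), each covering 250 bases before the start and 50 after it. Sites of the nuclear respiratory factor NRF1 were searched as GCGCA and GCGC with any 1 base between them, those of the ETS factor GABP as CCGGAAG, of YY1 as AANATGGCG, of ERRα as TCAAGGTCA, of Sp1 as GGGGCGGGG and the CRE as TGACGTCA, on both strands. The NRF1 letters were found in 24.2% of the member windows, 4.60% of all 32851 windows and 6.38% of the 21263 windows of protein-coding genes. Those of GABP were found in 24.2%, 8.86% and 11.6%, those of YY1 in 16.1%, 2.38% and 3.12%, the CRE in 6.45%, 1.79% and 2.23%, and those of ERRα in 3.23%, 0.423% and 0.334%. The Sp1 letters stood in 14.5% of the member windows, above the 11.4% of all windows and below the 15.4% of protein-coding genes. The windows were not chosen by response, and a match is a description of letters, not a site in use.

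The CRE occurred in 4 members, *Ndufa11*, *Uqcrfs1*, *Ndufa10* and *Ndufb2*, of which 1 rose, 1 fell and 2 did not pass at 4 h. The 250 bases before the start of all 4 are shown, with the CRE and the letters of the other motifs in capitals, to set genes of different response beside each other. The windows are *Ndufa11* at chr17:56717512-56717761 (plus strand), *Uqcrfs1* at chr13:30545317-30545566 (minus strand), *Ndufa10* at chr1:92473759-92474008 (minus strand) and *Ndufb2* at chr6:39592315-39592564 (plus strand).
Ndufa11: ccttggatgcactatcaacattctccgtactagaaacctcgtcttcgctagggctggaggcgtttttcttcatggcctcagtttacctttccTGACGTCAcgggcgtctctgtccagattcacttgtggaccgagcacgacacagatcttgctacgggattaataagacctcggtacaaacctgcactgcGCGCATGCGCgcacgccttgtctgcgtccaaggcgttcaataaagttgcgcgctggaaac
Uqcrfs1: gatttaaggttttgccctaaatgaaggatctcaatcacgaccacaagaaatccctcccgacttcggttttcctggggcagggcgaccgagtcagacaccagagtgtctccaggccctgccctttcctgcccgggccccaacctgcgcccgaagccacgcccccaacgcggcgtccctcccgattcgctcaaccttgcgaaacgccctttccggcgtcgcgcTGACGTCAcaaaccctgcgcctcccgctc
Ndufa10: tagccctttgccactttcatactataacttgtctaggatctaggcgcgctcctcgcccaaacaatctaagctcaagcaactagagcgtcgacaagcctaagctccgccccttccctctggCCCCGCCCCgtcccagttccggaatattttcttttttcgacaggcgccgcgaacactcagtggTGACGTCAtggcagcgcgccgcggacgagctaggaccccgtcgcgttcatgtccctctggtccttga
Ndufb2: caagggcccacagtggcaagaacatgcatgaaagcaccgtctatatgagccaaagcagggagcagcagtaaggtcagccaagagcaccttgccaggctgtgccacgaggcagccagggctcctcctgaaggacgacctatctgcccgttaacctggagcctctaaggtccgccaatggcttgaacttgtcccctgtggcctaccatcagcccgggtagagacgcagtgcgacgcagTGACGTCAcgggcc

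The first base of the CRE lies 158 bases before the start in *Ndufa11*, 29 in *Uqcrfs1*, 67 in *Ndufa10* and 14 in *Ndufb2*. *Ndufa11* also holds the NRF1 letters 60 bases before the start, and *Ndufa10* those of Sp1 130 bases before it. At 4 h *Ndufa10* had a log2 fold change of 0.07 and *Ndufb2* of 0.19, with adjusted p of 0.431 and 0.283 in edgeR.

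The upstream windows of *Atp5d*, the member with the largest rise, and of *Sdha*, which fell at 4 h, are set side by side next. This pair does not stand for the risers and fallers. The window of *Ndufb3*, which fell furthest, holds none of the 6 motifs, and those of the risers *Atp5o* and *Ndufa11* hold the NRF1 letters. The window of *Atp5d* (chr10:80142025-80142274, plus strand, the first of 2 annotated starts) holds none of the 6 motifs, and that of *Sdha* (chr13:74350241-74350490, minus strand) holds the NRF1 letters 3 times, 10, 55 and 98 bases before the start, in capitals.
Atp5d: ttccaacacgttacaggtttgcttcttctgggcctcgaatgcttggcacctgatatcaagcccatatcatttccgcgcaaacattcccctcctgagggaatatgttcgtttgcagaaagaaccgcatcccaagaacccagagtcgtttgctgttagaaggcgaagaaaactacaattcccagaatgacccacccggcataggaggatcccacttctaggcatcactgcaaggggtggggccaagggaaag
Sdha: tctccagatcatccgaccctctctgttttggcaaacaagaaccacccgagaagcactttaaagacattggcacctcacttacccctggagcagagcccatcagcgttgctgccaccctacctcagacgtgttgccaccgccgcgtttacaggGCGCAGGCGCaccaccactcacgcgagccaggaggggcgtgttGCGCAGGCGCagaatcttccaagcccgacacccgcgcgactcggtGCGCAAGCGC

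Of the 57 members with a window, 9 were higher at 4 h, 4 lower and 44 did not pass. The NRF1 letters stood in 2 of the 9, 2 of the 4 and 10 of the 44, and those of GABP in 2, 0 and 13.

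Other genes of the pathway were taken from lists chosen by role. Of 45 assembly factors tested, 3 were higher and 5 lower at 1 h, and 8 were higher and 4 lower at 4 h, shares of 17.8% and 26.7% beside 20.1% and 40.0% of all genes. *Sdhaf2*, which attaches the flavin to *Sdha*, had 893 to 977 normalized counts in untreated cells, 1324 to 1441 at 1 h and 1626 to 1741 at 4 h, a log2 fold change of 0.58 at 1 h (adjusted p = 7.79e-07 in edgeR) and 0.86 at 4 h (6.15e-09). *Ttc19*, an assembly factor of complex III, had 50 to 74 and 140 to 150 counts in untreated cells and at 4 h (1.23, adjusted p = 6.24e-06). *Cox17*, a copper chaperone of complex IV, was 0.93 higher at 1 h and 0.32 at 4 h, *Ndufaf3* of complex I 0.34 and 0.45. *Sco2*, a further copper chaperone, was lower at 4 h (-0.97), and *Bcs1l*, which inserts the Rieske protein, was lower at both times (-0.37 and -0.45), as was *Coa4* (-0.41 and -0.45). *Tmem126b* and *Tmem186*, assembly factors of complex I, were lower at 1 h (-0.50 and -0.38).

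Of 77 proteins of the mitochondrial ribosome tested, 1 was higher and 9 lower at 1 h, and 7 were higher and 8 lower at 4 h, with medians of -0.01 and 0.03. These are shares of 13% and 19.5%, beside 20.1% and 40.0% of all genes, and with the mouse as a block 2 were higher and 11 lower at 1 h and 11 were higher and 8 lower at 4 h, beside 27.0% and 47.4% of all genes in that fit. *Mrpl33* rose at both times (0.40 and 0.55), and *Mrps28* and *Mrps10* rose at 4 h (0.70 and 0.37). *Mrpl45* (-0.36 and -0.25), *Mrps35* (-0.30 and -0.27) and *Mrpl3* (-0.19 and -0.33) fell at both times, and *Mrps2* fell at 1 h (-0.39). Of 35 tested genes for transcription, RNA processing and translation in the mitochondrion, 1 was higher and 5 lower at 1 h and 1 was higher and 4 lower at 4 h, or 17.1% and 14.3% beside the same 20.1% and 40.0%. *Mtrf1*, a release factor of mitochondrial translation (-0.59 and -0.39), and *Ssbp1*, the mitochondrial single-strand binding protein (-0.42 and -0.33), fell at both times. *Tefm* fell (-0.42) and *Polg2* rose (0.62) at 1 h, and *Tfb1m* fell (-0.45) and *Gfm1* rose (0.25) at 4 h. *Tfam*, which packages and transcribes mitochondrial DNA, had -0.14 and -0.05 and did not pass.

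Among 13 nuclear regulators tested, 3 were higher and 1 lower at 1 h and 1 was higher and 3 lower at 4 h, or 30.8% at each time beside 20.1% and 40.0% of all genes. With the mouse as a block, 4 were higher and 1 lower at 1 h and 2 were higher and 3 lower at 4 h, beside 27.0% and 47.4% of all genes in that fit. *Pprc1*, a coactivator related to PGC-1α, had 803 to 890 normalized counts in untreated cells, 999 to 1076 at 1 h and 635 to 653 at 4 h, with log2 fold changes of 0.27 (adjusted p = 0.00124 in edgeR) and -0.40 (1.70e-05). *Myc* was 1.28 higher at 1 h and *Hif1a* 0.43 higher at 1 h. *Ppargc1b*, which encodes the coactivator PGC-1β, fell from 40 to 84 normalized counts in untreated cells to 19 to 42 at 4 h (-1.12, adjusted p = 0.0105), and *Sirt3*, the mitochondrial deacetylase, had -0.48 and -0.29. *Esrra*, *Gabpa*, *Gabpb1*, *Gabpb2*, *Nrf1*, *Yy1*, *Ncor1* and *Nrip1* did not pass at either time in edgeR, *Nrip1* passed at 1 h with the block (0.32, adjusted p = 0.00509), and *Ppargc1a*, which encodes PGC-1α, had a mean of 0.417 counts.

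Of 16 electron carriers and entry enzymes, 1 was higher at 1 h and 2 were higher and 2 lower at 4 h, or 6.25% and 25% beside 20.1% and 40.0% of all genes. *Gpd2*, the mitochondrial glycerol-3-phosphate dehydrogenase that passes electrons to ubiquinone, had 457 to 503 normalized counts in untreated cells, 673 to 826 at 1 h and 1522 to 1882 at 4 h. Its log2 fold change was 0.69 at 1 h and 1.89 at 4 h (adjusted p = 1.54e-05 and 1.97e-10 in edgeR), so an enzyme that feeds the chain rose further than any of the 77 members. *Cycs*, cytochrome c, passed at 4 h (1.34, adjusted p = 0.0292) on 1 to 15 normalized counts per library, and *Etfa* and *Sqor*, which pass electrons from fatty acids and from sulfide, fell by 0.21 and 0.18 on the log2 scale at 4 h. Sequence shared with other genes was not counted for the genes of these lists, so the low counts of *Cycs* are no measure of its level.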

How the data were processed

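RNA of the 12 BMDM libraries was sequenced as single-end reads of 50 bases in 1 lane from stranded mRNA libraries. According to the methods and the submitters' processing notes, the authors aligned them to GRCm38 with TopHat2 2.0.11 and deposited the raw counts per gene from HTSeq 0.8.0, without normalization. The strand option and the annotation release are not given in the sources used here. Without a known strand setting, reads of overlapping genes on opposite strands cannot be told apart.

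From the deposited counts, genes passing filterByExpr (12386) were tested with the quasi-likelihood test of edgeR 4.0.16 in R 4.3.3, after TMM scaling, in 1 fit of all 12 libraries with a mean per group, with Benjamini-Hochberg adjustment of the p-values. The paper's own test was limma on vsn-scaled values. Symbols and transcripts came from GENCODE M21, promoter windows from RefSeq (GRCm38.p6). Sharing was counted over 50-base stretches of the principal transcript, against annotated transcripts only.

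The titles give the mouse of each library. Deviations from the group means had Pearson's r of 0.291 to 0.561 within a mouse (12 pairs) and -0.300 to 0.0849 between mice (36 pairs), over 12386 genes. Alternatives were DESeq2 1.42.0, limma-voom (limma 3.58.1), RLE factors, total counts only, other filters and member minimums, the 2 groups compared alone, the mouse as a block with and without an adjustment for GC content and length (mgcv 1.9.3), a threshold of 0.01, and each library left out. The edgeR, DESeq2 and limma-voom fits were tested on simulated data. The genes with full values were, per complex and time, up to 2 risers and 2 fallers, the mitochondrial and core subunits and the isoforms, and up to 3 risers and 3 fallers that passed in each other list and time. The members and lists were chosen with earlier results of these data known. The values of 1 member are not reported here. Figures were drawn with matplotlib 3.10.9.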

Additional observations from a re-analysis of the deposited data

Results flagged for a closer look

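Between 4 h and 1 h of fenoterol, 9 members differed with an adjusted p under 0.05 in edgeR, beside 38.5% of all genes. In that fit their values against the shared untreated libraries thus differ between the times. The log2 fold changes from 1 h to 4 h were -0.25 for *Ndufb3*, -0.34 for *Ndufc2*, -0.17 for *Sdha*, -0.16 for *Sdhc*, -0.16 for *Uqcrc1* and -0.22 for *Uqcrfs1*, and 0.17 for *Ndufv3*, 0.16 for *Sdhb* and 0.18 for *Cyc1*. Scaling by total count alone gave 11 higher and 0 lower members, beside 43.1% of all genes, so all these falls lost their call.

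In 10 of the 159 sets of 4 libraries examined, 1 library stood apart from the other 3 by more of the range than Dixon's critical value for 4 samples, and chance alone flags about 1 in 20. In untreated BMDMs these were *Cox6b1* (2898 normalized counts in mouse 2, 3064 to 3091 in the others), *Ndufa4* (1229 in mouse 2, 1387 to 1418), *Sdhb* (2776 in mouse 4, 2386 to 2450) and *Uqcrfs1* (1386 in mouse 4, 1313 to 1322). At 1 h they were *Atp5a1* (12501 in mouse 1, 11516 to 11611), *Cox7b* (1204 in mouse 1, 1074 to 1095), *Cox6b1* (3515 in mouse 4, 3211 to 3238), *Ndufs8* (1049 in mouse 4, 937 to 954) and the share of counts on the nuclear members of complex IV (0.110% in mouse 4, 0.0973% to 0.0994%). At 4 h it was *Ndufa12* (216 in mouse 2, 240 to 242). The value of *Sdhb* that stood apart in untreated cells lies toward its level at 4 h.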

How the results depend on the processing

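Of the counts of members called, given as higher and lower, those at 1 h were 2 and 0, at 4 h 12 and 4, and between the times 3 and 6. With limma-voom 1 was higher at 1 h. With library size only, 1 was higher at 1 h, and 11 were higher and 0 lower between the times, beside 23.6% and 43.1% of all genes. Without a filter, 1 was lower at 4 h, and 1 was higher and 2 lower between the times. The replicate block gave 8 higher at 1 h, beside 27.0% of all genes. With GC content and length it gave 17 higher at 1 h, 26 and 9 at 4 h, and 7 and 11 between the times. All genes passed at 32.6%, 52.4% and 51.5% in that fit. At a threshold of 0.01, 1 was higher at 1 h, 5 and 0 at 4 h, and 0 and 1 between the times. The cause was not tested for these except the threshold. The share of all genes called was not taken with limma-voom, without a filter, at 0.01 or with 1 library left out. Counts of members under those settings therefore cannot be set against all genes.

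Leaving out 1 library gave 1 to 4 higher and 0 to 0 lower at 1 h, 6 to 13 and 1 to 5 at 4 h, and 0 to 4 and 3 to 6 between the times. Of the 12 members higher at 4 h, 6 remained without the 4 h library of mouse 1 and 7 without the untreated library of mouse 2. Of the 4 lower, 1 remained without the 4 h library of mouse 4 and 2 without that of mouse 3. Between the times, 0 were higher without the 1 h library of mouse 3 or the 4 h library of mouse 1 or 3, and 1 without the untreated library of mouse 4 or the 1 h library of mouse 1 or 2, and 3 were lower without the 4 h library of mouse 4. At 1 h, *Ndufa2* no longer passed when any 1 of 8 libraries was left out (untreated mouse 1, 2, 3 or 4, 1 h mouse 2 or 4, 4 h mouse 2 or 3), while *Atp5d* passed each time, and without untreated mouse 3 the 4 that passed did not include *Ndufa2*.

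With totals scaled by TMM, chosen after seeing the data, the nuclear share at 1 h was 0.615% and not 0.593%. Of 2949 values of the 45 members chosen for full values, each under 1 alternative, 84 lost and 72 gained a call, and 121 of members that did not pass changed sign, 28 with library size only, none of them past the threshold. The replicate block moved no other count of members called by over 1.5 times. Calls near the threshold rest on 4 libraries per group, and counts under 100 limit *mt-Nd6* and the genes below the minimum.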
